A study of Mus musculus with 4 samples.

Results

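The genes described here are 9 genes of the regulated secretory pathway for peptides, measured in primary mouse mesenchymal stromal cells (MSCs) in which Islr was knocked down. The peptide precursor genes are Penk and Tac1, the granin genes are Scg2, Vgf and Chgb, the helper protein gene is Scg5, and the processing enzyme genes are Cpe, Pcsk1 and Pcsk5. They make up 9 of the 21154 genes that a probe on the array could be named for, and 12 probes stood for them. The set was chosen on measured values of these same arrays, because Penk, Scg2 and Tac1 differed between the hairpins, so the differences of the 9 genes from the control array are given as a description, with no test.

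Total RNA came from primary MSC cultures at passage 5, each carrying a short hairpin RNA delivered by a retrovirus. Of the 4 cultures, 1 carried a control hairpin (shControl). The other 3 carried shIslr, each against its own site in Islr, which encodes Meflin, a protein of the MSC surface. They are called hairpins 1, 2 and 3, as numbered in the labels. Each culture was measured on 1 one-colour Agilent array. The mouse strain and age are not in the labels, nor is whether the cultures came from the same cell preparation, so the 3 hairpins count as replicates of the knockdown and not of animals.

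Peptide hormones and neuropeptides are made as larger precursors. In the secretory granule, convertases such as the products of Pcsk1 and Pcsk2 cut a precursor after pairs of basic amino acids, carboxypeptidase E (Cpe) trims the basic residues that remain, and an amidating enzyme finishes many of the peptides. Granins such as secretogranin II (Scg2), chromogranin B (Chgb) and Vgf pack the granule core and are themselves cut into peptides, and Scg5 encodes 7B2, the chaperone of the Pcsk2 enzyme. This pathway is best known from neurons and endocrine cells, but Penk, Cpe and the convertase gene Pcsk5 are also expressed in connective tissue cells.

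Several of these genes are known targets of cyclic AMP signalling, which acts through response elements such as TGACGTCA, and for this reason the stretches just before their start sites are shown. RefSeq promoter sequences (GRCm38.p6) were matched by symbol for 6 of the 9 genes, namely Scg2, Scg5, Chgb, Tac1, Pcsk1 and Pcsk5, and the search covered 250 bases before to 50 bases after the start on both strands. The 8 letters were found in the windows of Scg2, Chgb and Pcsk1, with the first base 68, 72 and 78 bases before the start. Of 32544 different promoter windows of the same length, 1.80% held them. The shorter TGACG, which lies inside the 8 letters and is in 20.9% of windows, was also found in Tac1 and Scg5. TGCGTCA, in 2.13% of windows, was found 199 bases before the start of Tac1 and within the 50 bases after the start of Scg5. Read on the other strand, TGCGTCA holds TGACG, so each of its matches is also a TGACG match. Tac1 and Scg5 held TGACG at other places too. A match to TGANTCA, which 7.79% of windows hold, was in none of the 6 windows, and the Pcsk5 window held none of the 4 motifs. The 250 bases before the start of 4 of these genes follow, with matches on either strand in capitals (CGTCA is TGACG read on the other strand) and the rest in lower case. They are Scg2 at chr1:79440027-79440276 (minus strand), Chgb at chr2:132781392-132781641 (plus strand), Pcsk1 at chr13:75089607-75089856 (plus strand) and Tac1 at chr6:7554811-7555060 (plus strand), all in GRCm38.p6.
Scg2: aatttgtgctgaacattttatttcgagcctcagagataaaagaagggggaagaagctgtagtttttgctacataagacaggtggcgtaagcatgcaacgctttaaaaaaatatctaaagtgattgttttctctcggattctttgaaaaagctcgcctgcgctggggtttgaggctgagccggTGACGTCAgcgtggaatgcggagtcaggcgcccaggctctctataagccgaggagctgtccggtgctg
Chgb: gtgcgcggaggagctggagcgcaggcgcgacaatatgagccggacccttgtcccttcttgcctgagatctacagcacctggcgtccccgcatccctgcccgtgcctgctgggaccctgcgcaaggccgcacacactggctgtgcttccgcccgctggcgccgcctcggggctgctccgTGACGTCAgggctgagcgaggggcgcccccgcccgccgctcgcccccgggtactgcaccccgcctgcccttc
Pcsk1: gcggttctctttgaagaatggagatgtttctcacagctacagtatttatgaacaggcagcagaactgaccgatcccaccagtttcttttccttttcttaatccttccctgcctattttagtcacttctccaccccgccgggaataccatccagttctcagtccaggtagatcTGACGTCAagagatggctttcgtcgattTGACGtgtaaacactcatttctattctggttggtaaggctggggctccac
Tac1: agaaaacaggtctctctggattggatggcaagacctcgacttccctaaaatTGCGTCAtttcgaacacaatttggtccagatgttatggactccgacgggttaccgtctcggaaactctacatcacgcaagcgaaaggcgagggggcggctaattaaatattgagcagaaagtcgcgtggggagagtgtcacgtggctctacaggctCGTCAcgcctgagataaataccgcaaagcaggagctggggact

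These letters describe the windows and say nothing of binding in these cells. Of the genes that share TGACGTCA, Scg2 was above background on every array, Pcsk1 was not above it on any and Chgb was near it on all 4. The part of the motif in these signals was not tested.

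The 4 arrays were alike as a whole. The scanner software called 49.4% to 53.8% of features well above background, the 75th percentile of the signal lay between 414.7 and 442.5, and no feature was saturated. All 16 stromal marker genes on the list, among them Col1a1, Pdgfra, Thy1 and Cd44, were above background on all 4 arrays. The knockdown target Islr read 454 on the control, and hairpin 2, at 70.5, was the 1 hairpin array still above background for it, 6.33-fold lower. Hairpin 1 was at least 20.5-fold lower and hairpin 3 at least 29.6-fold. Such bounds take the dimmest called feature of the array in place of the signal below background (19.3 on the control and 20.8, 19.1 and 15.0 on hairpins 1 to 3). Single probes can have another limit, so these bounds can be too high.

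The 9 genes fell into 3 kinds by signal. Penk, Scg2, Vgf, Scg5 and Cpe were above background on all 4 arrays, Tac1 and Chgb were above it on some, and Pcsk1 and Pcsk5 were above it on none. Signals of different probes cannot be set against each other as amounts of RNA. Differences below are log2, hairpin minus control, after each array was scaled to its 75th percentile, and with 1 array per hairpin they carry no replicate check.

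**Figure D1:**
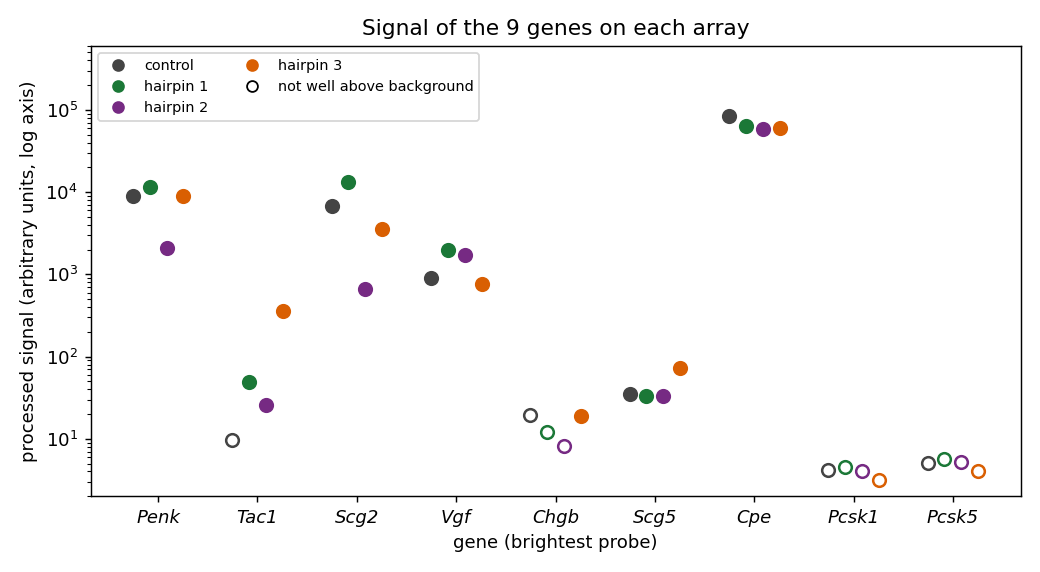
Processed signal (log axis) of the brightest probe of each of the 9 genes on the control array and the 3 hairpin arrays. Filled points are well above background and open points are not. Penk and Scg2 are lowest on hairpin 2, Tac1 is highest on hairpin 3, and Cpe is nearly level.

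Among the peptide precursors, Penk encodes proenkephalin, the source of the enkephalins. Its signal was 8980 on the control array, 11464 on hairpin 1, 2101 on hairpin 2 and 8892 on hairpin 3. Hairpin 2 alone stood apart, and the other 3 arrays lay close together. The difference from the control was 0.45 on hairpin 1, -2.07 on hairpin 2 (4.21-fold lower) and 0.02 on hairpin 3. Hairpin 2 was 5.73-fold below hairpin 1 and 4.25-fold below hairpin 3. The mean over the hairpins was -0.54 ± 1.35 (SD, n = 3), and without hairpin 2 it was 0.23. Among 12714 genes above background on all 4 arrays, Penk ranked 12 from the lowest by its difference on hairpin 2.

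Tac1 encodes the precursor of substance P and neurokinin A, the tachykinins. Its signal was 9.62 on the control array, which is not above background, and 49.0, 26.1 and 356 on hairpins 1, 2 and 3. All 3 hairpin arrays were above background, hairpin 3 far above the others. The gene was thus at least 2.71-fold higher than the control on hairpin 1, at least 1.37-fold on hairpin 2 and at least 18.8-fold on hairpin 3. Between hairpins, where both sides were measured, hairpin 3 was 6.94-fold above hairpin 1 and 13.7-fold above hairpin 2. With normexp background correction and quantile normalization, the log2 differences were 0.66, 0.23 and 2.50 in place of 2.44, 1.46 and 5.24.

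Marker genes of other cell types were read on the same arrays, because Tac1 is best known from neurons. Of 14 neuronal markers, 7 were above background on at least 1 array, and their summed signal was 9764 on the control and 6634 to 8589 on the hairpins, most of it from the Snap25 probe (7134 on the control). Without Snap25 the sums were 2630 on the control and 2236, 2736 and 2820 on hairpins 1 to 3. Tubb3, a neuronal tubulin gene, had 107, 95.9, 287 and 429 on the control and hairpins 1 to 3. Gap43 had 298, 183, 488 and 201 in the same order, Syp 1832, 1596, 1543 and 1620, and Elavl4 348, 300, 338 and 378. On hairpin 3, Gap43 and Syp were thus lower than on the control. Uchl1 was above background on hairpins 2 and 3 only (29.1 and 24.8). Map2, Elavl3, Syt1, Nefl, Nefm, Rbfox3 and Dcx were not above background on any array. Stmn2, a microtubule regulator of neurons, was above background on hairpin 3 alone, with 114 there and 4.48, 4.82 and 4.44 on the control and hairpins 1 and 2. S100b, a calcium-binding protein of glia and other cells, had 216 on hairpin 3 against 26.4 on the control and was not above background on hairpins 1 and 2. Of 9 neuroendocrine markers 5 were above background on at least 1 array, with summed signals of 2232 and 1904 to 1959. Most of this came from Syp (1832 on the control), which is also on the neuronal list. Chga, Insm1, Ddc and Neurod1 were above background on none. The summed signals of stromal markers were 592306 on the control and 482910 to 563573 on the hairpins. For blood cells they were 9879 and 5815 to 9482, most of it from the Itgam probe (8880 on the control, without it 998 and 727 to 855). For endothelium they were 3605 and 3322 to 3433, most of it from Kdr (3532 on the control). Cdh5, Tek and Emcn were not above background on any array. For epithelium the sums were 77.8 and 77.9 to 96.7. The part of these markers in the Tac1 result was not tested, and in bulk RNA more cells of a type and more RNA per cell cannot be told apart.

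Among the granins, Scg2 encodes secretogranin II, the precursor of secretoneurin. Its signal was 6776 on the control array, 13414 on hairpin 1, 662 on hairpin 2 and 3544 on hairpin 3. All 4 arrays differed, with hairpin 1 above the control and hairpins 2 and 3 below it. The difference was 1.08 on hairpin 1 (2.11-fold higher), -3.33 on hairpin 2 (10.1-fold lower) and -0.91 on hairpin 3 (1.87-fold lower). Hairpins 1 and 2 thus stood 21.3-fold apart, a range of 4.41 on the log2 scale. Of the 12714 genes above background on all 4 arrays, Scg2 had the lowest difference on hairpin 2, and 99.98% of these genes had a smaller range over the 4 arrays. The mean over hairpins was -1.05 ± 2.21 (SD, n = 3), and without hairpin 2 it turned to 0.087.

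Vgf encodes a granin-like protein that neurotrophins induce and that is cut into several peptides. Its signal was 903 on the control array, 1986 on hairpin 1, 1733 on hairpin 2 and 765 on hairpin 3. Hairpins 1 and 2 lay above the control and hairpin 3 a little below it. The difference was 1.23 on hairpin 1 (2.35-fold higher), 0.96 on hairpin 2 (1.95-fold higher) and -0.21 on hairpin 3. Unlike Penk and Scg2, Vgf was therefore not low on hairpin 2. The mean was 0.66 ± 0.77 (SD, n = 3), and it ran from 0.38 without hairpin 1 to 1.1 without hairpin 3.

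Chgb encodes chromogranin B, a core protein of secretory granules. Its probe was printed as 10 features on each array, and the features give the error within an array. Their signals had a median of 19.6 on the control array (range 13.9 to 24.2), 13.5 on hairpin 1 (7.47 to 18.1), 8 on hairpin 2 (4.87 to 14.6) and 19.0 on hairpin 3 (12.5 to 24). Well above background were 3 of 10 features on the control, none on hairpins 1 and 2, and 6 of 10 on hairpin 3. The dimmest called feature of the whole array was 15.0 on hairpin 3 and 19.3 on the control. A call could thus be reached at a lower signal on hairpin 3, and the counts of calls do not show a higher signal there. The ranges overlap between all arrays, and no fold is given because the gene was at the edge of background throughout.

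**Figure D2:**
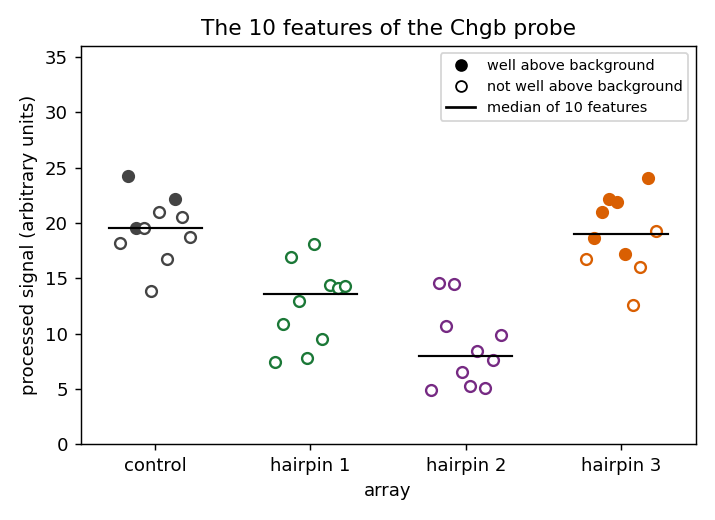
Processed signal (linear axis) of each of the 10 features of the Chgb probe on the 4 arrays, with a line at the median. Filled points are well above background: 3 on the control array, none on hairpins 1 and 2, and 6 on hairpin 3, where a call could be reached at a lower signal.

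The same repeated features show how much of a difference the spot itself can make. The array holds 399 probes printed 10 times. The SD of log2 signal between the 10 features of a probe had a median of 0.054 where the signal was over 1000, 0.075 from 100 to 1000, 0.19 from 30 to 100 and 0.43 under 30. The differences of Penk and Scg2 on hairpin 2 and of Vgf on hairpin 1 were many times these values. Tac1 had 1 feature per array and read under 30 on the control and on hairpin 2 (9.62 and 26.1), where the SD was largest (90th percentile 1.08). Its bound of at least 1.37-fold on hairpin 2 is of a size that the spot itself can make. These SDs hold only the spread within an array, since culture, labelling and array were not repeated for any hairpin.

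Among the processing genes, Scg5 read 35.1 on the control and 33.4, 32.9 and 72.5 on hairpins 1 to 3. Hairpin 3 stood above the other 3 arrays, which lay together. The difference on hairpin 3 was 1.08 (2.11-fold higher), against 0.02 and -0.07 on hairpins 1 and 2. With normexp background correction and quantile normalization it was 0.56, under 2-fold. The mean over hairpins was 0.34 ± 0.64 (SD, n = 3), and without hairpin 3 it was -0.027.

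Cpe encodes carboxypeptidase E, which trims peptides after the convertases have cut. Its brightest probe read 84821 on the control and 64151, 59356 and 59436 on hairpins 1 to 3. All 3 hairpins were a little below the control and close to each other. The differences were -0.31, -0.49 and -0.48, with a mean of -0.43 ± 0.10 (SD, n = 3). A difference on the lower side on all 3 hairpins was seen in 24.6% of all genes tested. The other Cpe probes, at 81347 and 4812 on the control, gave -0.45 ± 0.09 and -0.50 ± 0.16. Cpe was the 1 member of the 9 that was above background on all arrays and lay on the same side of the control on all 3 hairpins.

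Pcsk1 encodes the granule convertase that starts the cutting of many neuropeptide precursors, and Pcsk5 a convertase of wider distribution. The Pcsk1 probe had signals from 3.18 to 4.49 over the 4 arrays. The 2 Pcsk5 probes, made for different RefSeq transcripts, had signals from 3.81 to 5.34 and from 4.02 to 5.64. None was above background on any array, so their levels have only an upper bound and no difference is given.

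Taken by hairpin, the sizes were as follows. On hairpin 1, Scg2, Tac1 and Vgf were at least 2-fold higher among the 6 members that could be compared (above background on that array or on the control), and 0 were at least 2-fold lower. Over all 13799 genes compared there, 2.91% were at least 2-fold higher and 3.88% lower. On hairpin 2, Penk and Scg2 were at least 2-fold lower of 6 compared, and Tac1 passed this size by its measured signal although its bound did not, beside 3.93% lower and 3.99% higher over 13976 genes. On hairpin 3, Tac1 and Scg5 were at least 2-fold higher of 7 compared and 0 lower, beside 6.36% higher and 5.07% lower over 14396 genes. These shares are background only, because the members were chosen on the same differences. The range over the 4 arrays, on the log2 scale, was 4.41 for Scg2, 2.52 for Penk, 1.44 for Vgf, 1.15 for Scg5 and 0.49 for Cpe. Over the 12714 genes above background on all 4 arrays its median was 0.45 and its 95th percentile 1.46, so Cpe and Scg2 stood at opposite ends of the set.

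**Figure D3:**
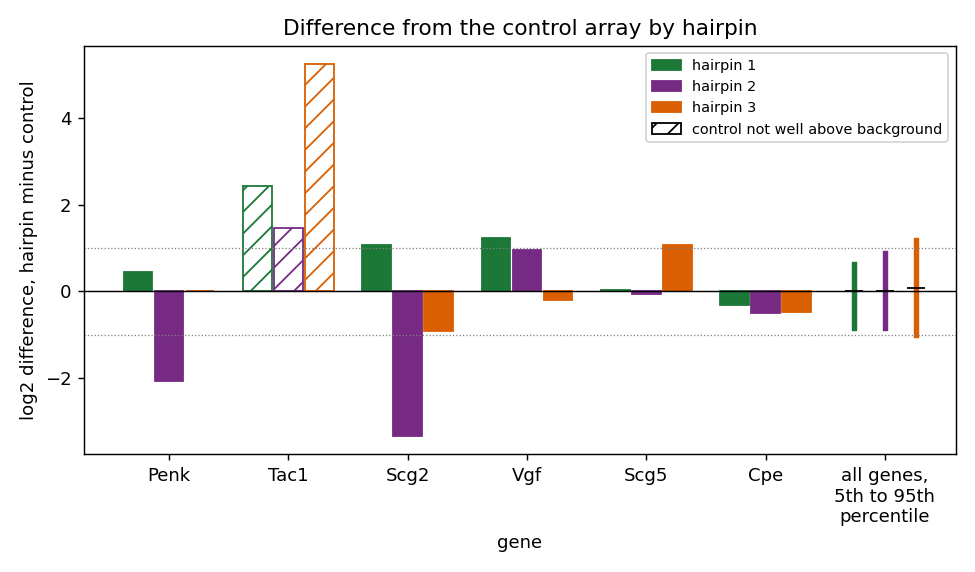
Log2 difference from the control array by hairpin for the 6 genes with a measurable difference. Hatched bars mark Tac1, whose control signal was not above background, dotted lines mark 2-fold, and the vertical lines at the right span the 5th to 95th percentile of all genes compared with a tick at the median. Penk and Scg2 lie furthest below 0 on hairpin 2 (-2.07 and -3.33), and Tac1 is highest on hairpin 3 (5.24).

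Islr itself was above background on hairpin 2, where Penk and Scg2 were lowest, and not above it on hairpin 1, where Penk and Scg2 were highest, or on hairpin 3, where Tac1 was highest. With 3 hairpins this is a description and was not tested.

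The genes whose pattern over the 4 arrays was nearest to each of 3 members were found by the root mean square difference between log2 profiles centred on their means, among genes with the same calls of above background. For Penk, among 12713 genes, the nearest were Clca3a2 (0.07), Clca3a1 (0.18) and Palmd (0.22). Clca3a1 and Clca3a2 are closely related copies, so their probes can share transcripts. Clca3a2 had signals of 210, 266, 45.8 and 185 on the control and hairpins 1 to 3. For Scg2 the nearest were Svep1 (0.63), Clca3a2 (0.69) and Akr1c18 (0.70), with Penk at rank 8 (0.75). For Tac1, among 71 genes with its calls, they were Serpinb9f (0.41), Crct1 (0.86) and Prr15 (0.94). Each likeness rests on 4 arrays that all hold the same control.

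Other genes of the pathway were read from 9 lists, 221 genes without the 9 members, of which 145 passed the filter of limma's test of the 3 hairpins against the control. That test called 0 of the 145 at an adjusted p under 0.05, and 6 had an unadjusted p under 0.05. Over all 13565 genes it called 0 higher and 47 lower, which is 0% and 0.346%, with 206 higher and 449 lower at an unadjusted p under 0.05. No hairpin array was above background for any of the 47. Of the 145, 35 were above the control on all 3 hairpins, 43 below it on all 3 and 67 went both ways (24.1% above and 29.7% below, beside 27.6% and 24.6% over all genes tested), with a median of -0.05 beside 0.01 over all genes. By size, 26 of 165 comparable genes were at least 2-fold higher on hairpin 3 (15.8%, beside 6.36% over all genes), and the control was not above background for 13 of these 26. At least 2-fold lower there were 14 genes (8.48%, beside 5.07%), and hairpin 3 was not above background for 6 of them. On hairpin 2, 3 of 147 were higher (2.04%, beside 3.99%) and 16 lower (10.9%, beside 3.93%). The control was not above background for 1 of these 3, nor hairpin 2 for 5 of the 16. On hairpin 1, 9 of 149 were higher (6.04%, beside 2.91%) and 12 lower (8.05%, beside 3.88%). The control was not above background for 5 of these 9, nor hairpin 1 for 8 of the 12. No test was made of these shares, and the same all-gene shares of 27.6% above and 24.6% below on all 3 hairpins are the background for each list that follows. Genes above background on the control alone passed the limma filter, while those above it on only some hairpins did not. This favours counts below the control, in the lists and over all genes.

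Other precursors were mostly dim. Of 55 genes, 20 were not above background on any array, among them Pdyn (prodynorphin) and Npy, and 24 were tested. Adm2, the gene of the vasoactive peptide intermedin, had signals of 261, 319, 487 and 874 on the control and hairpins 1 to 3, highest on hairpin 3 as Tac1 was (mean difference 1.02 ± 0.70, SD, n = 3). Nmb, the neuromedin B gene, was lower at -0.60 ± 0.15. Galp was at 0.86 ± 0.48 and Npvf at -0.51 ± 0.45, both with signals under 80. In the list, 4 genes lay above the control on all 3 hairpins, 7 below and 13 both ways.

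The other granin and granule genes included Nucb2, the nesfatin precursor gene (-0.33 ± 0.35), and Pcsk1n, which encodes an inhibitor of the Pcsk1 enzyme (-0.01 ± 0.01). Among the convertases, Furin and Mbtps1, which act in the constitutive pathway, differed little from the control. Furin had signals of 3299, 3120, 3131 and 3879 and Mbtps1 of 21774, 19632, 19731 and 20120. Pcsk2, the granule convertase that 7B2 serves, was dim at 56.0, 37.4, 40.6 and 25.9 (mean -0.67 ± 0.36), and Pcsk4 was at 0.27 ± 0.03. Of the 7 convertase genes tested, 1 lay above the control on all 3 hairpins and 2 below.

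Trimming and terminal modification followed no single direction. Qpct, the glutaminyl cyclase gene, had signals of 1787, 608, 952 and 1938, lowest on hairpin 1. Cpd, a carboxypeptidase of the trans-Golgi network with a role like that of Cpe, had 962, 578, 1103 and 581, while Cpxm1 was at -0.59 ± 0.70 and Qpctl at 0.39 ± 0.40. Pam, the amidating enzyme gene, had 402, 523, 344 and 665, with hairpin 2 lowest. Of 7 genes tested, 2 lay above the control on all 3 hairpins and 1 below.

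Among peptidases that break peptides down, Fap, a serine protease of activated stroma, was the largest difference, from 1998 on the control to 422, 502 and 280 (mean -2.31 ± 0.44). Anpep, the aminopeptidase N gene, had 2773 on the control and 2664, 1137 and 1042 on the hairpins. Prep was at 0.50 ± 0.15 and Ece2 at 0.65 ± 0.34. Mme, the neprilysin gene, was not above background on any array. Of 18 tested, 9 lay above the control on all 3 hairpins (50%, beside 27.6% over all genes) and 5 below (27.8%, beside 24.6%).

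For the receptors of the members' peptides, the probes of Oprm1 and of Tacr2 disagreed, while those of Ogfr, the opioid growth factor receptor gene, did not. Ogfr had a probe at 46096, 52846, 49193 and 58648 on the control and hairpins 1 to 3, and another at 7039, 7652, 7526 and 8170. Tacr1 and Tacr3, which bind tachykinins, and Oprd1, the delta opioid receptor gene, were not above background on any array, and Oprk1 was above it on hairpin 3 alone (20.6). Oprm1, the mu opioid receptor gene, had a probe with signals of 6419, 6043, 5551 and 3626 and another, printed as 10 features, with 4.83, 5.19, 5.15 and 3.99 and no array above background. Tacr2 likewise had a probe at 3192, 2825, 2676 and 1741 and another at 37.0, 65.3, 38.6 and 29.7. The bright probes of Oprm1 and Tacr2 differed from the control by -0.79 and -0.85 on hairpin 3, and those of Snap25 (-0.87) and Itgam (-0.81), genes of neurons and myeloid cells, did so by similar amounts. Which transcripts these bright probes caught was not tested. Ackr3, an atypical receptor that also takes up opioid peptides, had 1190, 1227, 1577 and 4614, highest on hairpin 3. Of 25 receptor genes tested, 4 lay above the control on all 3 hairpins (16%, beside 27.6% over all genes) and 12 below (48%, beside 24.6%). Among the 12 were Npr3 (-0.93 ± 0.70) and Npy2r (-1.15 ± 0.78), while Ramp2 was at -0.90 ± 1.05. Ntsr1, Ntsr2 and Bdkrb2, also of the 12, were above background on the control alone. On the whole list, 17 genes were above it on all 4 arrays.

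**Figure D4:**
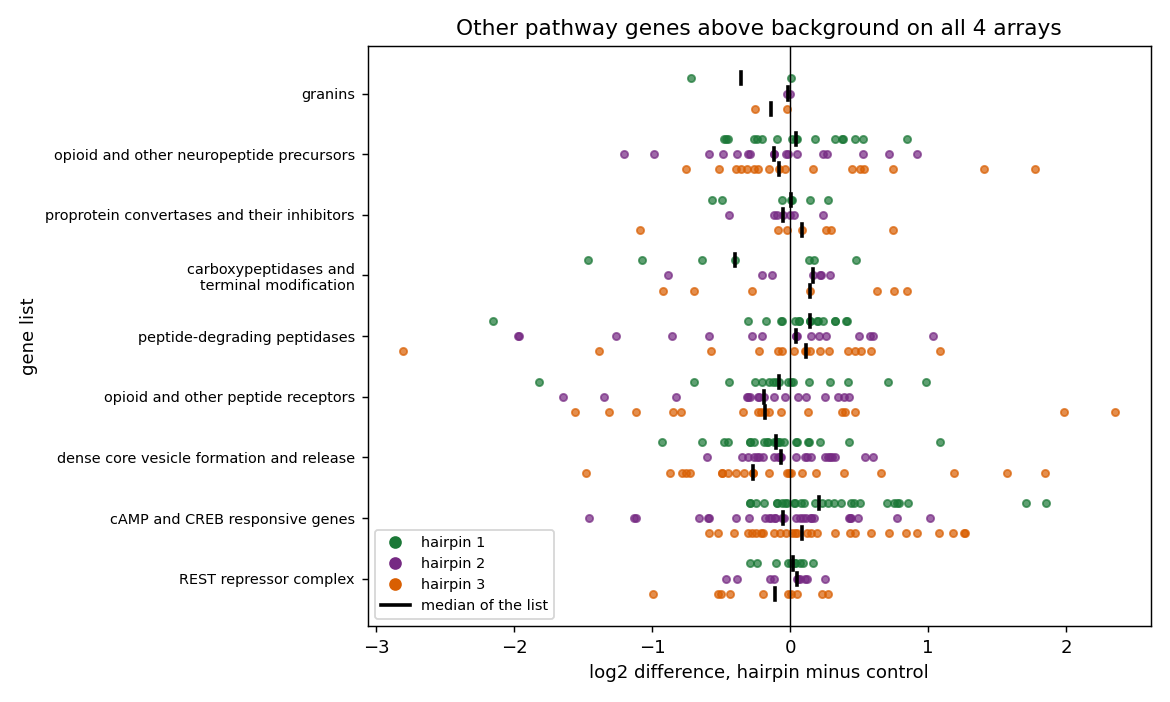
Log2 difference from the control array on each hairpin for the genes of the 9 lists, without the 9 members, that were above background on all 4 arrays. Each point is a gene and the black bar is the median of the list. The medians lie between -0.40 and 0.21 and single genes lie on both sides, with Fap furthest below.

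Genes of granule formation and release were close to the control as a list, with a median of -0.11 over 24 tested. Rab27b, a small GTPase of granule docking, had 210, 416, 246 and 612 and Rab3b had 195, 200, 236 and 688, both highest on hairpin 3. Ica1 was at 0.72 ± 0.41 and Unc13b at -0.62 ± 0.30. Genes that respond to cyclic AMP had a median of 0.12 over 28 tested, with 8 above the control on all 3 hairpins (28.6%, beside 27.6% over all genes) and 4 below (14.3%, beside 24.6%). The nuclear receptor genes Nr4a1 (0.67 ± 0.46) and Nr4a2 (0.82 ± 0.38) and the kinase gene Sik1 (0.63 ± 0.26) were above the control on all 3, and Atf3 was at 0.70 ± 0.78. Rest, which encodes the repressor of neuronal genes in other cells, was level at 2434, 2335, 2495 and 2462. Of its partners, Rcor1 was at -0.49 ± 0.49, Phf21a at -0.38 ± 0.13, Rcor2 at -0.26 ± 0.29 and Sin3a at 0.17 ± 0.06.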

How the data were processed

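Signals were measured on 4 one-colour arrays, 1 per culture. Per the file headers, the array design is 028005 (mm9) and the authors used Feature Extraction 11.5.1.1 from Agilent. The deposited processed signal intensity is linear, background-subtracted and detrended within an array. All arrays lay on the same slide, so no slide block applied. Features of a probe were averaged as log2, a probe counted as above background if over 0.5 of its features were, and each array was scaled to its 75th percentile. Probe accessions were matched to a RefSeq table, which named 28026 of 55681 probes for 21154 genes.

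For limma 3.58.1 in R 4.3.3, probes above background on the control or on all 3 hairpins were kept and the brightest stood for a gene, which left 13565 genes. The fit (lmFit, eBayes, two-sided, Benjamini-Hochberg threshold 0.05) takes the spread between hairpins for the lone control, and p-values measure only the spread between these cultures. The counts by hairpin use genes above background on the control or that hairpin. The number of arrays limits the precision.

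The members and the lists were chosen with earlier results of these data known. Named genes were the members, Islr, of each list up to 4 genes of largest mean difference among those above background on all 4 arrays, and 3 nearest patterns for Penk, Scg2 and Tac1. Pam, Mme, Rest, Pdyn, Npy, the members' receptors and the marker genes were picked for their role, with values seen. The summed signal of 1 marker list is not reported here.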

Additional observations from a re-analysis of the deposited data

How the results depend on the processing

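Over 28 differences of the members and Islr, quantile normalization and median centring kept all 28 within the spread between hairpins. Normexp background correction with quantile normalization kept 23. That spread is wide for Penk, Scg2 and Tac1, which were chosen because the hairpins differed, so a large shift can still count as kept. With normexp, Tac1 on hairpin 1 went from 2.44 to 0.66 and counted as kept. Cpe on hairpin 1 went from -0.31 to -0.19 and did not, so these counts are a weak check. The deposited series table holds the same signals times a constant for each array. After scaling it therefore had to give the same 28 values, and it is no separate check. Averaging a gene's probes kept the 4 values it could change. The Scg2 mean difference ran from -2.12 to 0.087 when a hairpin was left out, with the sign turned without hairpin 2. The means of Penk (0.23 without hairpin 2) and Scg5 (-0.027 without hairpin 3) also turned, within the spread between hairpins. The limma count of 47 lower genes was 75 with quantile normalization, 81 at an adjusted p under 0.10 (with 2 higher) and 0 with normexp, with no filter, with probes above background on all 4 arrays, with an intensity trend, and without each hairpin (0 to 0), while 266 to 547 were lower at an unadjusted p under 0.05 in those fits. The fit with probes above background on all 4 arrays left out the probes of all 47 genes by its filter, since no hairpin array was above background for them. The cause in the other fits was not tested. Counts at 2-fold, higher and lower, were 402 and 535 on hairpin 1, 558 and 549 on hairpin 2, and 915 and 730 on hairpin 3. In the same order, normexp gave 119 and 140, 129 and 190, and 298 and 284. With no filter they were 843 and 842, 1044 and 888, and on hairpin 3 1100 lower. With genes above background on all 4 arrays they were 149 and 195, 191 and 277, and 365 and 404, and at 1.5-fold 780 and 1127, 1352 and 1260, and 1944 and 1540. Pcsk1 and Pcsk5 were above background on no array, and Tac1 and Chgb on some. No paired analysis was possible because the control has 1 array.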

Other observations

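Several other peptide genes differed at least 2-fold from the control on 1 hairpin or more, and they are named here after their values were seen. Cck, the cholecystokinin precursor gene, read 22.2 on the control and 112 on hairpin 1 (5.36-fold higher), while hairpin 2 was not above background and hairpin 3 was at 31.0. Nppb, the precursor gene of brain natriuretic peptide, was not above background on the control and had 96.3, 35.0 and 29.3 on hairpins 1 to 3, at least 5.33-fold higher on hairpin 1. Nppc, which encodes the C-type natriuretic peptide, had 145 on the control and 45.8 on hairpin 2 (3.11-fold lower) and was not above background on hairpins 1 and 3 (at least 6.53-fold and 9.46-fold lower). Ghrh, the growth hormone releasing hormone gene, had 63.6 on the control and was not above background on any hairpin.

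Among receptors and cyclic AMP responsive genes, also named after their values were seen, the neuropeptide Y receptor gene Npy1r had 143 on the control and 219, 79.1 and 715 on the hairpins (5.11-fold higher on hairpin 3). Ppargc1a, a coactivator of mitochondrial genes, had 81.5 on the control and 276, 29.1 and 151 on the hairpins, highest on hairpin 1 and lowest on hairpin 2 as Penk and Scg2 were.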
